A study of Mus musculus with 14 samples.

Results

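miR-210 is the microRNA most closely tied to low oxygen, and its level was followed here across mouse heart transplants, the cells recovered from them, untransplanted hearts and blood cells. It was taken by name: the assay whose detector name, without its trailing catalogue number, is mmu-miR-210, which was 1 of 375 microRNA assays and filled 1 well on each of 14 array cards. The cards were TaqMan rodent microRNA arrays, which run a separate real-time PCR for a known small RNA in every well. The readout is the threshold cycle (Ct), the cycle at which the signal passes a threshold, so that an earlier cycle means more of the RNA and a shift of 1 cycle is about 2-fold. The miR-210 signal passed the threshold on 14 of 14 arrays.

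All transplants were heterotopic hearts, placed beside the recipient's own, and all mice were 8 to 10 weeks old. For syngeneic grafts both donor and recipient were C57BL/6, and the labels record no rejection. For allogeneic grafts BALB/c donors gave hearts to C57BL/6 recipients, and the labels record rejection. Whole grafts were taken on day 7 and graft-infiltrating lymphocytes (GIL), cells isolated out of grafts, on day 5. Each of these 4 groups had 3 arrays. The controls were 1 array of hearts from normal BALB/c mice and 1 array of peripheral blood mononuclear cells (PBMC) from normal C57BL/6 mice. RNA of 3 animals was pooled for every array, 100 ng from each and 300 ng together, and n below is the number of pools. The strain of the heart thus differed between allogeneic and syngeneic grafts, and between syngeneic grafts and normal hearts, where strain and group cannot be told apart. Allogeneic grafts and normal hearts were both BALB/c. No source used here states that pools came from separate operations, and p-values measure the spread between these pools.

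A microRNA is a short RNA that guides a silencing complex to messenger RNAs, which it recognises mainly through its seed near the 5′ end. Transcription of the miR-210 gene is raised by the hypoxia-inducible factors, the regulators that accumulate when oxygen is short, and its best known target is the iron-sulfur cluster scaffold ISCU, through which it lowers mitochondrial respiration. In the heart it is known to rise in muscle and vessel cells that are short of oxygen, and it is also made in activated T cells.

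The sequences are shown because the assay reads only the mature strand and because the seed sets miR-210 apart from the other mouse microRNAs. The assay carries the older name without an arm, which stood for the 3p strand. In the mature sequences, from RefSeq (build GRCm38.p6), capitals mark the seed, bases 2 to 8. In the hairpin, capitals mark the 3p strand, at positions 66 to 87 of 110.
mmu-miR-210-3p: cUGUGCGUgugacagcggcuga
mmu-miR-210-5p: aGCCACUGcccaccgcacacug
microRNA 210 hairpin: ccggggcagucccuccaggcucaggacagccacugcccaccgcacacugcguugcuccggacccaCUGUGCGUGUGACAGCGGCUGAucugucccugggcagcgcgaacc

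The hairpin lies on the minus strand of chromosome 7, at chr7:141221384-141221493, and the 3p strand at chr7:141221407-141221428. No RefSeq gene overlaps it. The nearest are Rassf7, 2725 bases away at lower coordinates, and Gm51460, 6712 bases away at higher coordinates, both protein coding. The seed of the 3p strand, UGUGCGU, was found in 0 other mature microRNAs among the 1679 names searched, and a search with bases 2 to 7 also found 0. The 22 bases of the 3p strand are 63.6% G and C.

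An assay counted as detected below Ct 35, which 228 to 260 microRNA assays met on heart arrays. On GIL and PBMC arrays 161 to 221 did. Each table, hearts and lymphocytes, has 7 arrays, and the microRNAs found on every one of them, 210 in hearts and 137 in lymphocytes, served as its reference. The level of an assay is the mean Ct of this reference on the same array minus the Ct of the assay, in log2 units, so that levels subtract to give log2 fold changes. The mean reference Ct was 22.4 to 23.9 on heart arrays and 23.2 to 28.0 on the others, with allogeneic GIL pool 3 apart from the rest at 28.0 and 161 assays detected (42.9%). The export software had put a quality mark on the miR-210 well of 2 arrays, syngeneic GIL pool 1 and allogeneic GIL pool 3. With 1 well per card there was no technical replicate, and the number of arrays limits the precision.

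The first question was whether miR-210 differs between rejected allogeneic and syngeneic hearts. In allogeneic hearts the Ct of miR-210 was 17.9, 17.3 and 18.4 in pools 1, 2 and 3. In syngeneic hearts it was 19.1, 20.7 and 21.1, and in normal hearts 22.0. Already as raw Ct, every allogeneic pool came earlier than every syngeneic pool, and the normal array came last. Scaled to the heart reference, the levels were 5.33, 5.84 and 5.10 in allogeneic pools, 3.31, 2.67 and 2.63 in syngeneic pools and 1.91 in normal hearts. The lowest allogeneic level stood 1.79 log2 units above the highest syngeneic level. Non-overlap of this kind was found in 128 of 238 assays tested (53.8%).

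**Figure D1:**
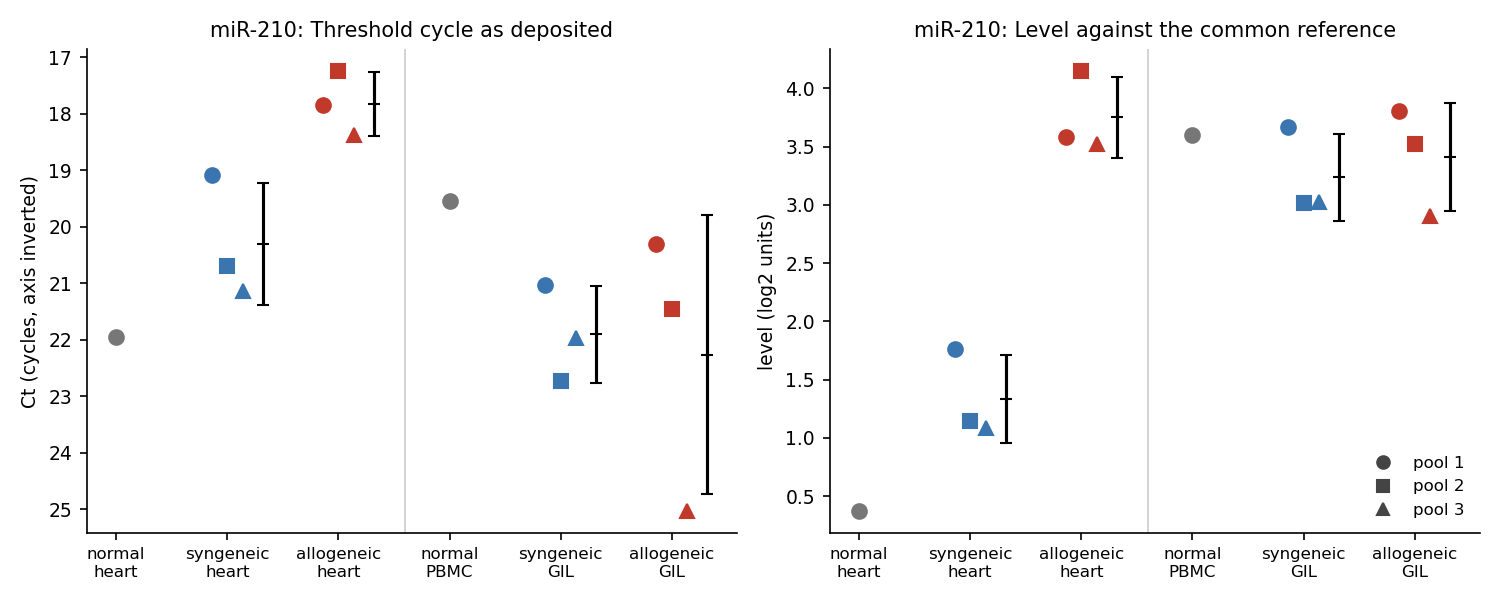
Ct of miR-210 as deposited (left, axis inverted so that a higher level is up) and its level in log2 units against the assays detected on all 14 arrays (right), 1 symbol per array, with mean ± SD (n = 3 pools) beside each transplant group; blue is syngeneic, red allogeneic and grey normal. The 3 allogeneic hearts sit above the 3 syngeneic hearts in both panels, while the GIL groups overlap.

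miR-210 was higher in allogeneic than in syngeneic hearts by 2.55 ± 0.31 log2 units (SE, n = 3 pools per group; 95% confidence interval 1.82 to 3.29). That is 5.88-fold (3.53 to 9.77), with an adjusted p = 0.00322 from limma, a linear model fitted across all assays tested, with Benjamini-Hochberg adjustment. An assay was called at an adjusted p under 0.05, and 77 of 238 assays were called in this comparison (32.4%), 41 of them higher (17.2%) and 36 lower (15.1%). Over all assays tested the median difference was 0.022. The rise of miR-210 was the tenth largest of the fitted rises and its p was the seventh smallest. The two-sided exact permutation test over the 6 arrays gave p = 0.1, the smallest that 3 pools against 3 allow.

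The cards had been run on several days, and 2 heart run days held both groups. On the first, allogeneic pool 1 stood 2.02 log2 units above syngeneic pool 1. On the other, allogeneic pool 3 stood 2.43 above syngeneic pool 2. Both within-day differences had the direction of the pooled one. With run day as a block, the difference was 2.23 and was not called (limma adjusted p = 0.0721). That fit had 1 residual degree of freedom and called 2 of the 238 assays. With only the arrays of those 2 days and the normal array, the difference was 2.24 (limma adjusted p = 0.0246).

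Against normal hearts of the same strain, allogeneic grafts held more miR-210 by 3.52 ± 0.43 log2 units (95% confidence interval 2.48 to 4.56; 11.5-fold; limma adjusted p = 0.00117). This was a comparison with many calls, 125 of 241 assays (51.9%). Syngeneic grafts, of the other strain, stood 0.96 ± 0.43 above normal hearts (−0.081 to 2.01; 1.95-fold), which was not called (limma adjusted p = 0.149, with 46 of 242 assays called, 19%, 28 of them higher and 18 lower). All 3 syngeneic pools were above the normal array, the nearest by 0.73. The single normal array was taken to have the spread of the transplant groups, and the exact permutation test cannot go below p = 0.25 with 3 pools against 1. Both transplant groups share this array.

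The authors' deposited table gives relative quantities, ratios to the normal array of the same table after scaling to the small nucleolar RNA snoRNA202. In the authors' deposited table miR-210 stood at 12.9, 23.0 and 17.3 in allogeneic hearts and at 3.91, 2.15 and 2.19 in syngeneic hearts. The groups do not overlap in those values either. In GIL the authors' deposited table gives 2.44, 3.75 and 1.22 for allogeneic pools and 1.37, 0.841 and 1.10 for syngeneic pools, relative to PBMC, and the groups overlap.

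MicroRNAs that mark cell types differed between the heart groups along with miR-210. The 2 leukocyte microRNAs, miR-142-3p and miR-142-5p, were detected on every heart array, and their summed linear level relative to the reference was 6.21 in normal hearts, 28.4 to 43.0 in syngeneic and 108 to 128 in allogeneic hearts. Both were called higher in allogeneic than in syngeneic hearts, beside 17.2% of all assays. miR-142-3p rose by 1.64 ± 0.25 (limma adjusted p = 0.00457) and miR-142-5p by 1.02 ± 0.30 (limma adjusted p = 0.0419). miR-223, of myeloid cells, was at 16.7, 27.9 to 66.2 and 56.2 to 134. The lymphocyte pair miR-150 and miR-342-3p was at 85.1, 71.8 to 89.5 and 74.1 to 87.6, with the groups overlapping. Within that pair miR-342-3p was called higher in allogeneic hearts (1.30 ± 0.38, limma adjusted p = 0.0431, lost under 14 of 23 other settings), while miR-150 stood at −0.49 ± 0.22 (limma adjusted p = 0.124). In bulk samples, fewer cells of a type and less RNA per cell cannot be told apart.

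The microRNAs of heart muscle ran the other way. The 6 of 6 cardiac muscle microRNAs on the cards, among them miR-1 and miR-133a, were detected on every heart array, and their summed level was 4625 in normal, 1493 to 2469 in syngeneic and 561 to 711 in allogeneic hearts. Of these, 5 were called lower in allogeneic than in syngeneic hearts and 0 higher, beside 15.1% and 17.2% of all assays. The 2 endothelial strands of miR-126 summed to 1042, 376 to 512 and 110 to 167, and both were called lower. Of the fibroblast list, 2 of 3 members were tested and both were called lower, and the sum was 10.6 in normal, 15.1 to 25.5 in syngeneic and 4.16 to 7.14 in allogeneic hearts. The erythroid microRNAs miR-451 and miR-486 summed to 8.06 in normal hearts, 0.600 to 3.16 in syngeneic and 11.9 to 28.5 in allogeneic hearts. Of this pair, 1 was called higher and 0 lower. The one called was miR-451 (3.99 ± 0.71, limma adjusted p = 0.00797), while miR-486 stood at −0.16 ± 0.24 (limma adjusted p = 0.608). Relative to normal hearts, miR-486 stood at −2.17 in allogeneic and −2.01 in syngeneic hearts, and miR-451 at 1.27 and −2.72. The part of any of these cell types in the difference of miR-210 was not tested.

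The second question was whether the same difference appears in the cells recovered from grafts. In allogeneic GIL the Ct of miR-210 was 20.3, 21.5 and 25.0. In syngeneic GIL it was 21.0, 22.7 and 22.0, and in PBMC 19.5. The latest Ct belonged to allogeneic pool 3, whose reference assays were late as well. Scaled to the lymphocyte reference, the levels were 3.83, 3.54 and 2.92 in allogeneic GIL, 3.71, 3.05 and 3.07 in syngeneic GIL and 3.63 in PBMC. The groups overlapped, and PBMC lay within the range of both.

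Allogeneic and syngeneic GIL differed by 0.16 ± 0.34 log2 units (95% confidence interval −0.68 to 1.00; 1.11-fold, 0.622 to 2.00), and miR-210 was not called (limma adjusted p = 0.733). The exact permutation test gave p = 0.9. In the same comparison 73 of 201 assays were called (36.3%), 25 higher and 48 lower, and the median difference of all tested was −0.24. The interval excludes a difference of the size seen in hearts on this scaling. Without allogeneic pool 3 the difference was 0.51 (limma adjusted p = 0.246), without allogeneic pool 1 it was −0.042, and without both arrays with a marked well it was 0.71 (limma adjusted p = 0.0918). Against PBMC, allogeneic GIL stood at −0.20 ± 0.49 (limma adjusted p = 0.731; 123 of 212 assays called, 58%) and syngeneic GIL at −0.36 ± 0.50 (limma adjusted p = 0.574; 139 of 229, 60.7%). The sign of both differences against PBMC turned under some scalings.

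The arrays labelled GIL also carried microRNAs of graft tissue. Cardiac muscle microRNAs summed to 13.8 to 22.1 in syngeneic GIL and 36.2 to 87.3 in allogeneic GIL, against 0.0777 in PBMC, where 4 of 6 were not detected. The endothelial strands of miR-126 summed to 55.3 to 85.5 in syngeneic GIL, 23.4 to 39.8 in allogeneic GIL and 1.22 in PBMC. The fibroblast list stood at 21.6 to 26.2, 3.75 to 8.75 and 0.0343, with miR-199a-5p and miR-214 not detected in PBMC. The lymphocyte pair stood below its PBMC value, at 21.6 to 27.2 in syngeneic and 24.1 to 44.2 in allogeneic GIL against 163. Relative to PBMC, miR-150 stood at −2.97 log2 units in syngeneic and −2.46 in allogeneic GIL, and miR-342-3p at −1.09 and −0.51. The leukocyte pair was at 9.08 to 17.7, 31.7 to 47.4 and 133, and miR-223 at 10.1 to 30.9, 5.25 to 17.9 and 83.7. Of the erythroid list, miR-486 was not detected in the lymphocyte table and the sum was at most 0.765. The part of graft tissue in the level of miR-210 in GIL was not tested.

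The allogeneic difference of miR-210 was larger in hearts than in GIL by 2.40 ± 0.46 log2 units (95% confidence interval 1.37 to 3.42; 5.27-fold, 2.59 to 10.7). This interaction over the 12 transplant arrays was called (limma adjusted p = 0.00628), as were 57 of 198 assays (28.8%). Hearts were taken on day 7 and GIL on day 5, and tissue and day cannot be told apart. The donor strain differed between allogeneic and syngeneic grafts. No run day held both GIL groups, so that run day and group cannot be told apart in GIL. The call depends on the scaling. By raw Ct, with no scaling, the difference was 2.83 and was not called (limma adjusted p = 0.585). Relative to the microRNA reference, MammU6, a spliceosomal RNA, was lower in allogeneic than in syngeneic GIL (mean difference −0.82), as was snoRNA202 (−0.89), while in hearts they differed by 0.12 and −0.15. Scaled to MammU6, the difference between hearts and GIL was 1.46 (limma adjusted p = 0.237), and scaled to snoRNA202 it was 1.66 (limma adjusted p = 0.0879).

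**Figure D2:**
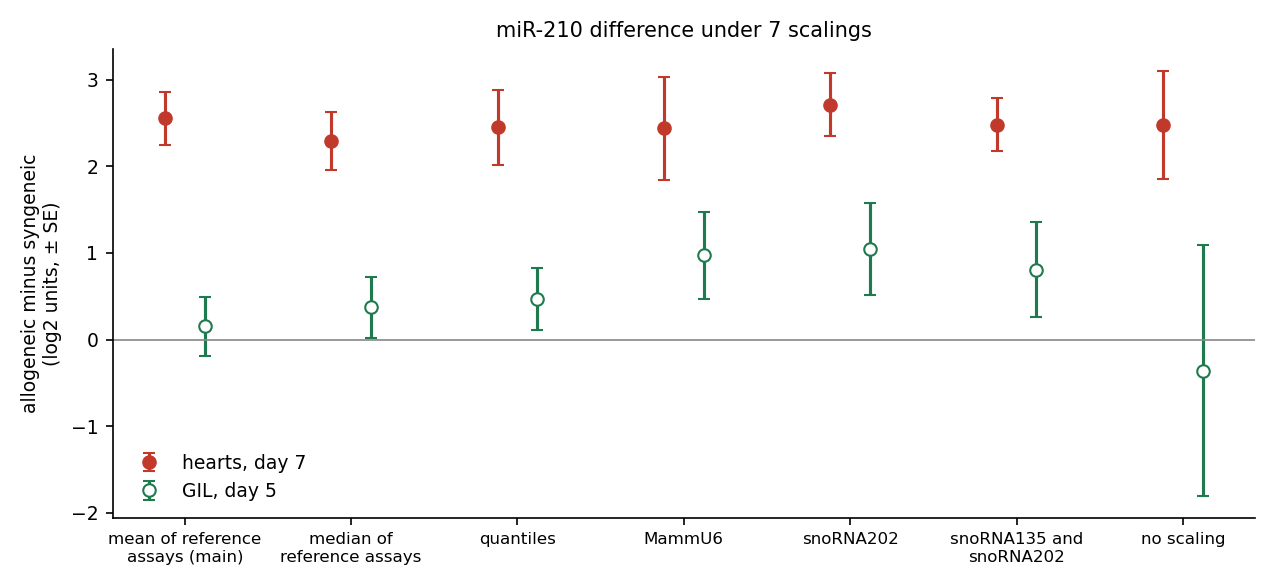
Difference of miR-210 between allogeneic and syngeneic samples in log2 units (± SE) under 7 scalings, for hearts and for GIL; filled symbols were called and open symbols were not. The heart difference stays between 2.30 and 2.71 and is called under each of the 7, while that of GIL runs from −0.36 to 1.05 and is called under none.

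Across the tables, levels are a description, since the cards were of different tissues and days. Against the 133 assays detected on all 14 arrays, the mean level was 3.75 ± 0.35 (SD, n = 3 pools) in allogeneic hearts, 3.60 in PBMC, 3.41 ± 0.46 in allogeneic GIL and 3.24 ± 0.37 in syngeneic GIL. Below these came syngeneic hearts at 1.33 ± 0.38 and normal hearts at 0.37. The first 4 groups overlap each with its neighbour. Syngeneic hearts lay below every GIL array and above the normal hearts. On this reference allogeneic hearts stood at the level of the blood and graft cells, and syngeneic and normal hearts did not reach it. Normal hearts were lowest and syngeneic hearts next to lowest under each of the small RNA and reference scalings tried across the tables. The distance depended on the scaling. Syngeneic hearts stood at −1.90 relative to syngeneic GIL on the common reference, at −1.25 by MammU6, at −1.67 by snoRNA202 and at −0.12 by the median of the reference of each table. By raw Ct syngeneic hearts stood above syngeneic GIL, by 1.60, and the mean of allogeneic GIL was lowest of all. That mean held pool 3 at Ct 25.0, while pools 1 and 2, at 20.3 and 21.5, came earlier than normal hearts at 22.0. Allogeneic hearts stood above allogeneic GIL by 0.34 on the common reference and 0.21 by MammU6. That distance was 1.80 by the median and 2.00 by the mean of the reference of each table, and 4.43 by raw Ct. Scaled to snoRNA202, allogeneic GIL came first and allogeneic hearts next, −2.19 and −2.20 relative to that RNA.

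The assays whose profile was most like that of miR-210 were found by the root mean square difference over the 7 arrays, each assay centred on its own mean. In hearts, among 209 assays compared, the nearest was miR-500 at 0.311 log2 units, followed by miR-467a (0.403), miR-7a (0.408), miR-467b (0.577) and miR-141 (0.586). The median of all was 1.58. Ranked by Pearson correlation instead, 3 of these 5 stayed among the 5 nearest, while miR-141 came at rank 12 and miR-467b at rank 17. miR-500 is encoded on the X chromosome, miR-467a and miR-467b come from a large repeat cluster in an intron of Sfmbt2, and miR-141 is an epithelial member of the miR-200 family. None of them carries the seed of miR-210.

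Like miR-210, each of the 5 was lowest in normal hearts, intermediate in syngeneic hearts and highest in allogeneic hearts, which the choice by profile favours and which was not tested. The mean difference between allogeneic and syngeneic hearts was 2.09 log2 units for miR-500, 2.24 for miR-467a, 1.98 for miR-7a, 1.90 for miR-467b and 1.50 for miR-141. For miR-500 the levels were −0.14, 0.14 and 0.16 in allogeneic pools, −1.52, −2.15 and −2.44 in syngeneic pools and −3.13 in normal hearts. miR-141 spread most, with allogeneic levels of −4.45, −3.83 and −5.36.

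**Figure D3:**
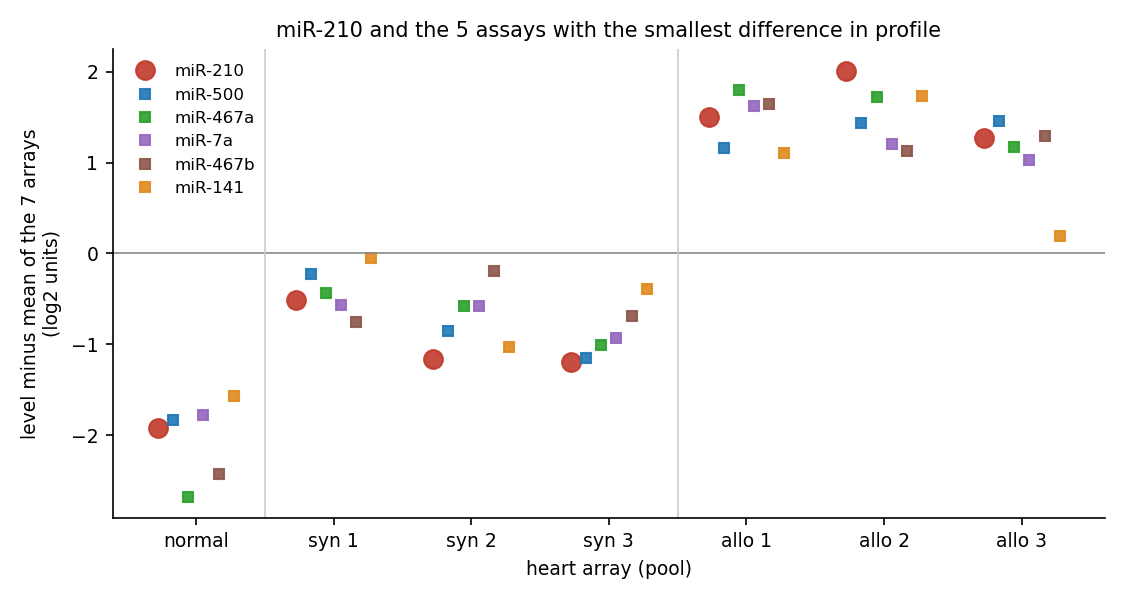
Level of miR-210 (large circles) and of the 5 assays nearest to it in hearts (squares) on each of the 7 heart arrays, in log2 units relative to the mean of the assay over those arrays. All 6 are lowest on the normal array, and each allogeneic value of each assay is above all its syngeneic values.

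The GIL arrays took no part in choosing these 5 assays. There, miR-467a and miR-7a rose in allogeneic samples, by 2.19 ± 0.33 log2 units (limma adjusted p = 0.00770) and 2.16 ± 0.31 (limma adjusted p = 0.00713). miR-141 stood at 2.90 ± 1.07 (limma adjusted p = 0.0787), miR-500 at −0.72 ± 1.01 (limma adjusted p = 0.600) and miR-467b at −0.82 ± 1.54 (limma adjusted p = 0.686). These 3 were below the detection limit on 1 GIL array each, which for miR-500 and miR-467b was allogeneic pool 3, the array that stood apart. Without that array the sign of both turned, to 0.53 ± 0.38 for miR-500 (limma adjusted p = 0.322) and 1.07 ± 0.46 for miR-467b (limma adjusted p = 0.137). miR-467a and miR-7a kept their calls without it, at 2.50 and 2.19. For miR-467a the allogeneic difference in hearts and in GIL differed by 0.054 ± 0.43 (limma adjusted p = 0.925), against 2.40 for miR-210. The same quantity was −0.18 ± 0.39 for miR-7a (limma adjusted p = 0.748) and −1.40 ± 1.24 for miR-141 (limma adjusted p = 0.415). For miR-500 it was 2.82 ± 1.11 (limma adjusted p = 0.0843) and for miR-467b 2.72 ± 1.66 (limma adjusted p = 0.243), as large as for miR-210 but not called.

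**Figure D4:**
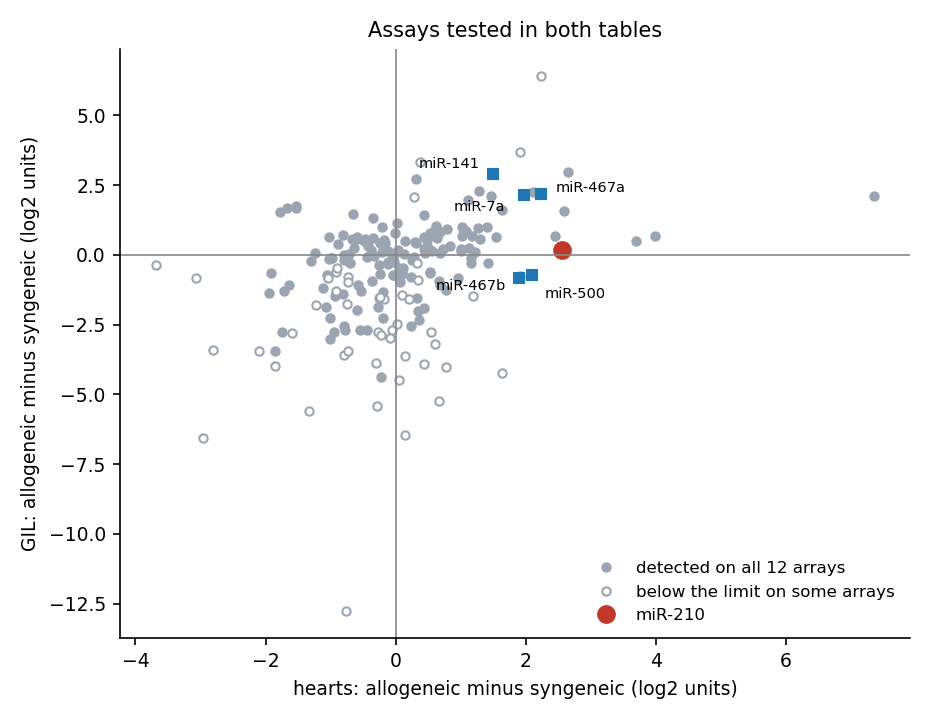
Allogeneic minus syngeneic difference in log2 units in hearts (horizontal) and in GIL (vertical) for the 198 assays tested in both; open symbols were below the detection limit on some arrays, and blue squares are the 5 assays nearest to miR-210 in hearts. miR-210 lies at 2.55 and 0.16, while miR-467a and miR-7a lie near 2 on both axes.

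In the lymphocyte table the nearest of 136 assays were miR-10a (0.158), miR-139-5p (0.305), miR-15a (0.324), miR-221 (0.356) and miR-195 (0.384), with a median of 0.826 over all. Their mean differences between allogeneic and syngeneic GIL were 0.15, −0.13, 0.41, −0.28 and −0.10 log2 units. Ranked by Pearson correlation instead, 2 of these 5 stayed among the 5 nearest. By that measure miR-221 came at rank 18 (correlation 0.44) and miR-195 at rank 88 (−0.10). The direction of all 5 turned under at least 1 other scaling. In hearts, which took no part in this choice, miR-10a rose by 1.00 ± 0.30 (limma adjusted p = 0.0431) and miR-221 by 1.15 ± 0.29 (limma adjusted p = 0.0245). miR-139-5p fell by 1.00 ± 0.27 (limma adjusted p = 0.0339) and miR-195 by 0.98 ± 0.24 (limma adjusted p = 0.0240). miR-15a stood at 0.31 ± 0.31 and was not called (limma adjusted p = 0.463). Each of these 4 calls was lost under 9 to 14 of 23 other settings, with its direction kept.

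A list of other microRNAs reported to rise under low oxygen in cultured cells was set beside miR-210. Of 14 listed, 13 were on the cards and 12 were tested, and 0 were called higher in allogeneic than in syngeneic hearts, against 17.2% of all assays. Called lower were 2, beside 15.1% of all assays. These were miR-322 (−1.12 ± 0.24, limma adjusted p = 0.0158) and miR-26a (−0.80 ± 0.24, limma adjusted p = 0.0431). Both calls were lost under several of the other settings, miR-322 under 7 of 23 and miR-26a under 15. The median of the 12 was −0.30, beside 0.022 for all assays. miR-155, which activated lymphocytes and macrophages also make, stood at 1.10 ± 0.35 (limma adjusted p = 0.0524), miR-23b at −0.64 ± 0.20 (limma adjusted p = 0.0524) and miR-27a at 0.73 ± 0.35 (limma adjusted p = 0.158).

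In allogeneic against normal hearts 1 of the 12 was called higher and 4 lower, beside 26.1% and 25.7% of all assays, with a median of −0.79. In syngeneic against normal hearts 0 were called in either direction, beside 11.6% higher and 7.44% lower of all, with a median of −0.44. In GIL, 2 of the 12 tested were called higher in allogeneic samples and 0 lower, beside 12.4% and 23.9% of all assays. These were miR-155 (1.98 ± 0.26, limma adjusted p = 0.00713) and miR-27b (0.78 ± 0.24, limma adjusted p = 0.0478, lost under 13 of 22 other settings). miR-322 stood at −1.18 ± 0.39 (limma adjusted p = 0.0610), miR-181a at 0.62 ± 0.24 (limma adjusted p = 0.0875) and miR-26b at 0.41 ± 0.21 (limma adjusted p = 0.169). The median was 0.23, beside −0.24 for all. Against PBMC, 3 of 13 were called higher and 8 lower in allogeneic GIL, beside 22.2% and 35.8% of all assays, and 2 higher and 7 lower in syngeneic GIL, beside 28.8% and 31.9%. In the interaction between hearts and GIL, 0 of 12 were called higher and 2 lower, beside 20.7% and 8.08% of all assays.

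The other list held 4 microRNAs reported to lower HIF-1alpha, the oxygen-regulated subunit of the factor that switches miR-210 on. In hearts 3 were tested and 0 were called in either direction, beside 32.4% of all assays. miR-20a stood at 0.61 ± 0.24 (limma adjusted p = 0.0937), miR-17 at 0.43 ± 0.28 (limma adjusted p = 0.268) and miR-20b at 0.43 ± 0.41 (limma adjusted p = 0.446), with a median of 0.43. Against normal hearts, 0 of the 3 were called in allogeneic or in syngeneic grafts, beside 51.9% and 19% of all assays. In GIL all 4 were tested, and 2 were called higher and 1 lower, beside 12.4% and 23.9% of all assays. miR-20b (1.44 ± 0.31, limma adjusted p = 0.0180) and miR-20a (0.89 ± 0.27, limma adjusted p = 0.0478) rose in allogeneic samples. miR-199a-5p fell there, with a difference of −1.31 ± 0.29 (limma adjusted p = 0.0198), and miR-17 stood at 0.64 ± 0.26 (limma adjusted p = 0.0977). The calls of miR-20a and miR-199a-5p were each lost under 12 of 22 other settings, and that of miR-20b under 4. miR-199a-5p is also a fibroblast microRNA. All 3 members of the fibroblast list were called lower in allogeneic GIL, beside 23.9% of all assays, and the part of fibroblasts was not tested. Against PBMC, 1 of the 4 was called higher and 3 lower in both GIL groups. Of all assays, 22.2% were called higher and 35.8% lower for allogeneic GIL, and 28.8% and 31.9% for syngeneic GIL. The member called higher was miR-199a-5p, which was not detected in PBMC.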

How the data were processed

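MicroRNA was measured in 14 pools on TaqMan rodent array cards of 384 wells. Per the labels' protocols, total RNA came from a mirVana kit, and cDNA made and preamplified with Megaplex primers was run on a 7900HT instrument. The authors deposited Ct values, a delta Ct on an inverted log2 scale and a relative quantity, which is a ratio to the normal array. In the deposited wells the delta Ct equals the Ct minus that of snoRNA202 to within 0.0005. Baseline and threshold settings are not given in the sources used here.

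Levels were recomputed from Ct, with undetermined wells and wells at Ct 35 or later set to 35. An assay was tested where detected on every array of at least 1 group compared. Group means were fitted per table with limma 3.58.1 in R 4.3.3 (eBayes, two-sided, Benjamini-Hochberg), on all 7 arrays. Scripts were tested on simulated data. A let-7b well of allogeneic heart pool 2, whose sample name differed, was left out.

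Named assays were miR-210, the 3 controls, the 5 nearest profiles per table and up to 5 members of each list by smallest p. The members and lists were chosen with earlier results of these data known. Same-numbered pools of different groups are not stated to share animals, and the main fit did not pair them. The correlations of deviations of same-numbered pools were −0.09, −0.13 and −0.05 in hearts and 0.00, 0.06 and −0.02 in GIL. Such values cannot show whether the pools share animals. Alternatives were other scalings, detection limits, filters, blocks, samples in the fit and each array left out.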

Additional observations from a re-analysis of the deposited data

Results flagged for a closer look

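The allogeneic difference of miR-210 differed between hearts and GIL, by 2.40 log2 units in the interaction test over 12 arrays (limma adjusted p = 0.00628). It kept its direction under all 27 other settings and its call under 23. The 4 exceptions were raw Ct, MammU6, snoRNA202, and snoRNA135 with snoRNA202.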

How the results depend on the processing

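The difference of miR-210 between allogeneic and syngeneic hearts ran from 2.23 to 2.78 over 23 other settings and kept its call under 22. The exception was run day as a block (2.23). Leaving out each array gave 2.36 to 2.78. A fixed run day block was not run for GIL or for contrasts with the normal arrays: no run day holds both groups. With the pool number as a replicate block the difference in hearts was 2.55 (limma adjusted p = 0.0189), that in GIL 0.16 and the interaction 2.40 (limma adjusted p = 0.0245), with no call of miR-210 changed.

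Between allogeneic and syngeneic GIL the value was −0.36 by raw Ct, and −0.042 to 0.51 leaving out each array. Allogeneic GIL minus PBMC was 1.16 by snoRNA202, 0.78 by snoRNA135 with snoRNA202, 0.25 by the median and 0.55 by quantiles. It was 0.0098 at a limit of Ct 32, 0.21 without the 2 arrays with a marked well, and −0.40 to 0.17 leaving out each array. Syngeneic GIL minus PBMC was 0.11 by snoRNA202 and 0.080 by quantiles. By raw Ct these differences were −2.72 and −2.36, and by MammU6 −0.48 and −1.45, none of them called. The interaction was 2.83 by raw Ct (limma adjusted p = 0.585), 1.46 by MammU6, 1.66 by snoRNA202 and 1.67 by snoRNA135 with snoRNA202 (limma adjusted p = 0.0826).

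Calls in hearts numbered 77, and 19 by raw Ct, 34 by MammU6, 42 with no filter, 46 with the replicate block, 2 with the run day block and 49 on the 2 run days with both groups. Leaving out each array gave 42 to 81. Calls in GIL numbered 73, and 9 by raw Ct, 48 by snoRNA202, 31 by snoRNA135 with snoRNA202, 35 with no filter, and 40 to 73 leaving out each array. By raw Ct the calls fell from 125 to 56 for allogeneic and 46 to 18 for syngeneic against normal hearts, 123 to 20 and 139 to 38 for GIL against PBMC, and 57 to 6 for the interaction.

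The scaling moved the median of all assays in hearts by −0.12 with MammU6, 0.15 with snoRNA202 and −0.26 with the median. The split of calls, 41 higher to 36 lower, became 42 to 23 with snoRNA202 and 24 to 56 with the median. In GIL the shifts were −0.51 by raw Ct, 0.82 by MammU6, 0.89 by snoRNA202, 0.65 by snoRNA135 with snoRNA202, 0.22 by the median and 0.30 by quantiles. The split there, 25 to 48, became 1 to 8, 34 to 20, 38 to 10, 21 to 10, 36 to 39 and 34 to 31 in that order.

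Of 15 pairs of groups, the order of levels kept 11 by raw Ct, 14 by MammU6, 12 by snoRNA202, 14 by snoRNA135 with snoRNA202 and 14 by the median.

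In GIL the sign of 6 other assays also turned, besides those given in the report for miR-500 and miR-467b. By raw Ct, miR-10a was −0.36, miR-15a −0.10 and miR-26b −0.10. By MammU6, snoRNA202, and snoRNA135 with snoRNA202 in turn, miR-139-5p was 0.69, 0.76 and 0.52, miR-195 0.72, 0.79 and 0.55, and miR-221 0.54, 0.61 and 0.37. By the median and by quantiles, miR-139-5p was 0.092 and 0.26 and miR-195 0.12 and 0.031, and by quantiles miR-221 was 4.9e-05. Without the 2 arrays with a marked miR-210 well, miR-139-5p was 0.18 and miR-221 0.028. Leaving out each array gave −0.028 to 0.38 for miR-10a, −0.35 to 0.082 for miR-139-5p, −0.20 to 0.094 for miR-195 and −0.48 to 0.093 for miR-221. Some settings were chosen after seeing the data. These were the 133 reference assays detected on all 14 arrays, leaving out the 2 arrays with a marked well, and the 2 run days. The cause of these changes was not tested.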
